A study of Homo sapiens with 6 samples.

Results

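Caspases are cysteine proteases that cut proteins after aspartate, and 7 of their genes are described here, of 11963 genes that the array's annotation names: CASP1, CASP2, CASP4, CASP6, CASP8, CASP9 and CASP10. They were taken as every probe set that the platform's annotation names with 1 of these symbols, which gave 22 of the 22283 probe sets on the array. CASP1 and CASP2 had 5 probe sets each, CASP10 had 4, and CASP4, CASP6, CASP8 and CASP9 had 2 each. Levels came from 6 Affymetrix arrays of total RNA from Hs578T, an established human breast cancer line, that had been engineered so that the homeobox gene HOXA5 could be induced. The groups were induced cells at 6 h and at 9 h and uninduced cells at 0 h, with 1 array of each in experiment 1 and in experiment 2. All 3 groups carried the inducible HOXA5, and the labels name neither the inducer nor its dose. The 6 arrays included no uninduced cells at 6 h or 9 h, so HOXA5, the inducer and time in culture cannot be told apart. HOXA5 itself was not analysed here. CASP2 and CASP8 have been reported as effectors of the cell death that HOXA5 induces.

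Caspases are made as inactive precursors, and a cell holds most of them ready before any death signal. Initiator caspases (CASP2, CASP8, CASP9, CASP10) are switched on when adaptor proteins bring the precursors together. Among them CASP8, CASP9 and CASP10 cut effector caspases, a class to which CASP6 belongs. CASP1 and CASP4 belong to the inflammatory branch, which matures interleukins and opens membrane pores through gasdermins. An array reads the transcript of each gene and not the cut, active enzyme.

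Across 6 h and 9 h of induction no probe set of the 7 genes passed the test against its 0 h level. The lowest fitted changes were those of CASP6 on its brighter probe set at both times. At 9 h that change was 0.19 in experiment 1 and -1.72 in experiment 2. The highest were those of CASP4 on its brighter probe set at 6 h and of CASP10 at 9 h on a probe set other than its brightest. The other CASP4 probe set changed by -0.29 at 6 h. The other CASP10 probe sets had negative changes at 9 h, between -0.21 and -0.084. By limma, 0 of the 21 caspase probe sets tested passed at 6 h against 0 h (lowest adjusted p = 0.969), where 0% of all 18360 tested probe sets passed. At 9 h against 0 h the count was again 0 (lowest adjusted p = 0.818; 0% of all). For 9 h against 6 h it was 0 (0.932; 0% of all), and for both induced times together against 0 h it was 0 (0.860; 0% of all). Even without adjustment, 0 caspase probe sets had a p under 0.05 in any of these 4 comparisons, against 4.77%, 7.41%, 5.27% and 6.19% of all tested probe sets. With the experiment number in the model (replicate block), 0.359% of all tested probe sets passed at 9 h and 0.163% for both induced times, and 0% for the other comparisons, and again 0 caspases did. In that fit 0 caspases had an unadjusted p under 0.05, beside 9.7%, 13.9%, 9.24% and 12.3% of all tested probe sets in the same order. The median log2 change of the 21 was -0.11 at 6 h and -0.088 at 9 h, beside -0.0033 and -0.020 over all tested probe sets. The caspase changes ran between -0.96 and 0.62 at 6 h and between -0.76 and 0.65 at 9 h.

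The median 95% interval of a caspase probe set reached 1.13 log2 units to either side of its estimate, which is more than a doubling. Against 0 h, the intervals of CASP8 213373_s_at at 6 h and of the 2 CASP9 probe sets at 9 h stayed inside a log2 change of 1 in both directions. With the replicate block, CASP1 211366_x_at and CASP9 210775_x_at at 6 h did so too, and the median reach was 1.02. For the other tested probe sets at these times the interval held a change of that size in at least 1 direction. An exact permutation test of 2 arrays against 2 cannot give a p below 0.333.

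Each value below is an intensity after quantile normalisation, which gives all arrays the same distribution. Values under 12.7, the 25th percentile, were raised to that floor for the changes, so a lower intensity has no order here. Of the 22 caspase probe sets, 14 lay above the floor on every array and 7 on 2 to 5 of them. The last one, CASP2 211140_s_at, exceeded it on 1 array, with an intensity of 14.7 in experiment 1 at 6 h, and was not tested. Probe sets ending in _x_at hold probes that may also bind other transcripts, and those ending in _s_at match several transcripts, so the intensity of one probe set is not set against that of another. The deposited intensities were not on a common scale, with array medians from 18.7 to 95.7, and unscaled changes over all tested probe sets had a median of -1.34 at 6 h and -0.56 at 9 h. Every change given here is therefore relative to the whole array. In unscaled values the positive changes of CASP2, CASP4 and CASP9 at both times, of CASP8 at 9 h and of CASP10 at 6 h, on their brightest probe sets, turned negative. Hs578T is a mesenchymal-like line, and all 7 of its markers (VIM, FN1, SPARC, COL1A2, CAV1, CD44, AXL) were above the floor on all arrays, with summed intensities between 16894 and 18283. Single markers differed more than the sum. VIM, CD44 and AXL were higher in experiment 2 at every time, and FN1, SPARC, COL1A2 and CAV1 were lower. At 0 h VIM read 4772 in experiment 1 and 7670 in experiment 2, and COL1A2 read 2301 and 940. Of 7 luminal epithelial markers, KRT18, GATA3, ESR1 and TFF1 were above the floor on all 6 arrays, CDH1 on 3, and EPCAM and KRT19 on 0. Less RNA per cell and fewer cells with it cannot be told apart in such samples.

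**Figure D1:**
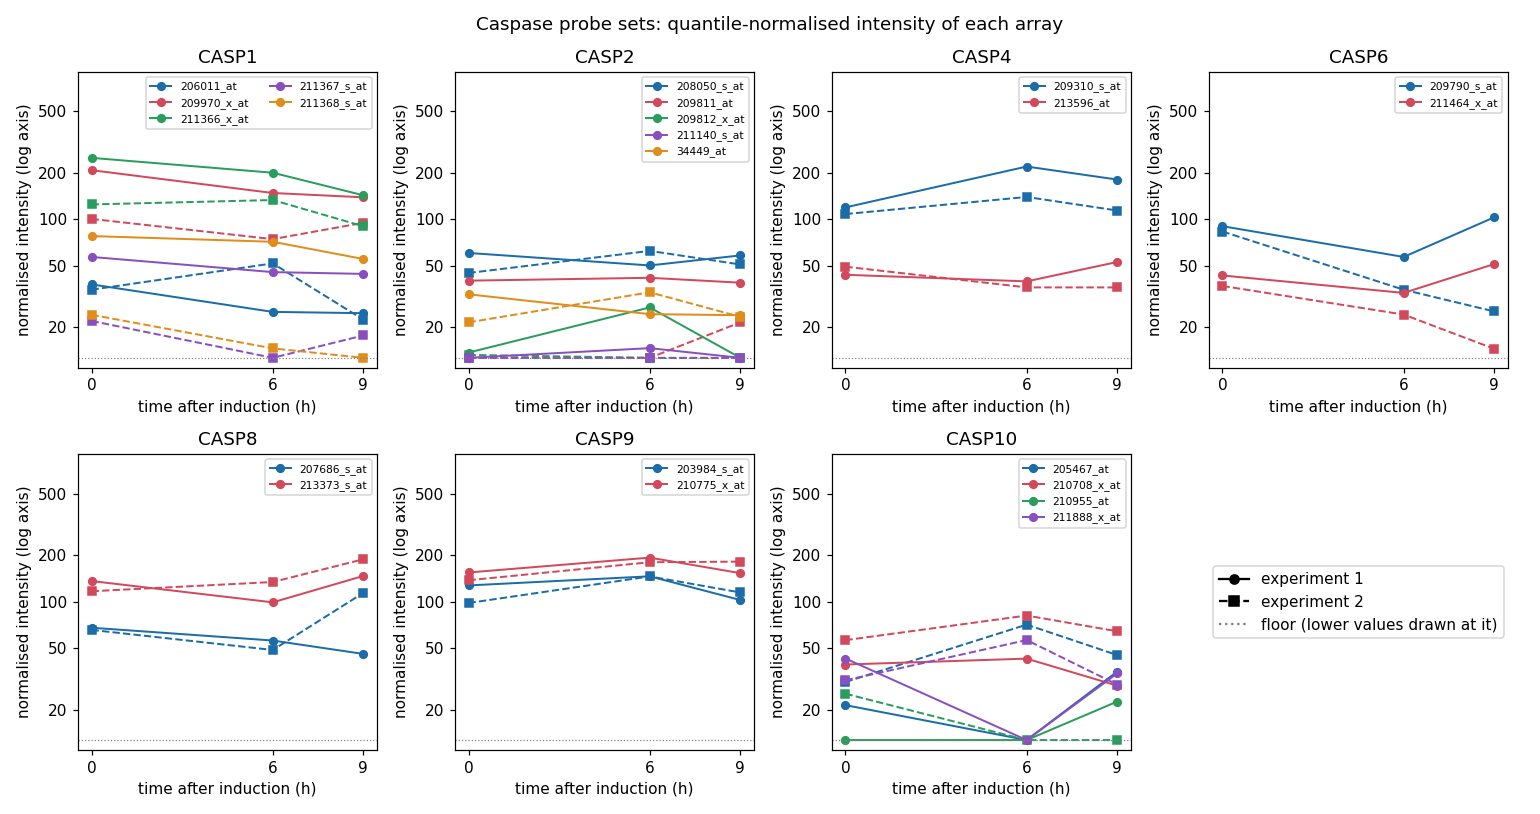
Normalised intensity (log axis) of each of the 22 caspase probe sets against time after induction (h), 1 panel per gene and 1 colour per probe set, with circles and solid lines for experiment 1 and squares and dashed lines for experiment 2. Points at the dotted line lie at or under the floor of 12.7; the 6 h arrays of CASP6 lie below its 0 h arrays, and 4 of the 5 CASP1 probe sets lie lower in experiment 2 at every time.

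CASP2, an initiator that is assembled on a platform of PIDD1 and CRADD, had 4 tested probe sets. Its brightest probe set, 208050_s_at, read 60.7, 50.4 and 58.5 at 0, 6 and 9 h in experiment 1, and 45.0, 62.6 and 51.1 in experiment 2. The 3 times overlapped, and the experiments moved apart at 6 h, by -0.27 and 0.47 on the log2 scale. The log2 change was 0.10 ± 0.43 at 6 h and 0.065 ± 0.43 at 9 h (standard error, n = 2 arrays per group; 95% interval at 9 h from -0.94 to 1.07). The second probe set above the floor throughout, 34449_at, had changes of 0.11 and -0.16. The remaining CASP2 probe sets were at the floor on some arrays. Of these, 209811_at read 40.2, 41.9 and 39.0 in experiment 1 and was at the floor at 0 h and 6 h in experiment 2, with 21.6 at 9 h. For 209812_x_at both 9 h arrays were at the floor of 12.7, and the 0 h arrays read only 13.8 and 13.3. With quantile normalisation this puts 9 h at least 1.06-fold lower than 0 h. The fitted log2 change was -0.088 ± 0.40 (95% interval from -1.03 to 0.86). With median scaling, 0 CASP2 probe sets were lower in both experiments at 9 h. The 6 h arrays of 209812_x_at read 27.0 in experiment 1 and the floor in experiment 2.

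CASP8 is the initiator that the adaptor FADD recruits to activated death receptors. Its brightest probe set, 213373_s_at, read 136, 99.0 and 147 at 0, 6 and 9 h in experiment 1, and 117, 134 and 188 in experiment 2. Both 9 h arrays lay above both 0 h and both 6 h arrays, while 6 h and 0 h overlapped. The log2 change at 9 h against 0 h was 0.40 ± 0.35 (95% interval from -0.42 to 1.22, limma adjusted p = 0.854), and against 6 h it was 0.53 ± 0.35 (adjusted p = 0.932). The other probe set, 207686_s_at, read 67.8, 56.1 and 45.9 in experiment 1, and 65.7, 48.7 and 114 in experiment 2. Its highest and its lowest array were both at 9 h, with changes of -0.56 in experiment 1 and 0.80 in experiment 2. At 6 h both arrays were below both 0 h arrays (log2 change -0.35 ± 0.52). For CASP8 the order by mean log2 level was 9 h, 0 h and 6 h on both probe sets, and no difference between neighbours in it passed the test.

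The title of the series asks about transcriptional targets of HOXA5, and homeobox proteins commonly bind sites with a TAAT core. The promoter windows of CASP2 and CASP8 are shown for that reason, from RefSeq on GRCh38.p14, each reaching from 250 bases before a start site to 50 after it, with TAAT and its reverse complement ATTA in capitals. The arrays do not tell which start was used. The 3 windows are CASP2 start 1 (chr7:143288101-143288400, plus strand), CASP2 start 2 (chr7:143289338-143289637, plus strand) and CASP8 start 1 (chr2:201233213-201233512, plus strand).
CASP2 start 1: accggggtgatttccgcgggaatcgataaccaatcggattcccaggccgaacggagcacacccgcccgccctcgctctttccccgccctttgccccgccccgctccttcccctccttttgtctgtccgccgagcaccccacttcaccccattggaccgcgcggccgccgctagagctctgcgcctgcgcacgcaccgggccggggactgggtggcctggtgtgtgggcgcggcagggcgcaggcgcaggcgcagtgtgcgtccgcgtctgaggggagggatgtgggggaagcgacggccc
CASP2 start 2: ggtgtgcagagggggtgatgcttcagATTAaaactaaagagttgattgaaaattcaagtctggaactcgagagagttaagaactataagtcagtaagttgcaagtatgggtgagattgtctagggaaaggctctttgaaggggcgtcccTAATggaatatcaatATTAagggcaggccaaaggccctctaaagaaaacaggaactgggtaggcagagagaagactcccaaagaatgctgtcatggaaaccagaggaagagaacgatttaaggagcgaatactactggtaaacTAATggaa
CASP8 start 1: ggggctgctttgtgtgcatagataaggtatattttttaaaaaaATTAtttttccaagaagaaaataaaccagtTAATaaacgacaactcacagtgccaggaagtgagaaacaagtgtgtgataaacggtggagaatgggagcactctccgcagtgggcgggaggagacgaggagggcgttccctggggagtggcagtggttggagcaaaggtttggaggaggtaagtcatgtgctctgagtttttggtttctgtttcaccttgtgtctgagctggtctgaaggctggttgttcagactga
The first CASP2 window held 0 matches, the second 4, and the CASP8 window 2. Sequences of this kind were found for 5 of the 7 genes, 9 windows in all. CASP4 had 5 matches in its window, where a TAAT and an ATTA that overlap were counted separately. CASP8 had 3 and 1 in its other windows, and CASP6 and CASP9 had 0. Among all 35116 windows of the same length in the table, 50.2% held at least 1 match, so a match is the common case and says nothing of binding.

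CASP10, the closest relative of CASP8 and like it recruited by death receptors, had 1 probe set above the floor throughout. This probe set, 210708_x_at, read 39.2, 42.8 and 28.6 at 0, 6 and 9 h in experiment 1, and 56.4, 81.4 and 64.3 in experiment 2. Every experiment 2 array was above every experiment 1 array. Its log2 change was 0.33 ± 0.58 at 6 h and -0.13 ± 0.58 at 9 h. On 205467_at the experiments went opposite ways at 6 h: it read 21.4, the floor and 35.3 in experiment 1, and 30.2, 71.0 and 45.1 in experiment 2. At 9 h both of its arrays were above both 0 h arrays, with a log2 change of 0.65 ± 0.78 (limma adjusted p = 0.901). The probe set 211888_x_at likewise read 42.9, the floor and 34.4 in experiment 1, against 31.0, 56.4 and 29.1 in experiment 2, so its 6 h changes were opposed as well. The last, 210955_at, was above the floor on 2 arrays, at 25.4 in the 0 h array of experiment 2 and 22.6 in the 9 h array of experiment 1.

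CASP9 is the initiator that APAF1 and cytochrome c activate when mitochondria are breached. Its brighter probe set, 210775_x_at, read 154, 193 and 153 at 0, 6 and 9 h in experiment 1, and 138, 179.9 and 182 in experiment 2. Both 6 h arrays were above both 0 h arrays, and the 9 h arrays overlapped with 0 h and 6 h. The second, 203984_s_at, read 127, 146 and 102 in experiment 1, and 98.0, 146 and 115 in experiment 2, with 6 h above both other times. The log2 changes at 6 h were 0.35 ± 0.30 and 0.38 ± 0.34, of the same sign in both experiments, with an adjusted p = 0.969 each by limma. In unscaled values they were not positive in both experiments for either probe set. Relative to each array's own shift in unscaled values, 1 of the 2 probe sets was positive in both. At 9 h the normalised changes were 0.19 and -0.044. The interval of 210775_x_at at 9 h ran from -0.52 to 0.91.

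CASP6, an effector caspase that cuts lamins of the nuclear envelope, had the most negative changes of the 7 genes on its brighter probe set. Probe set 209790_s_at read 90.4, 57.2 and 103 at 0, 6 and 9 h in experiment 1, and 83.5, 35.1 and 25.4 in experiment 2. The other, 211464_x_at, read 43.4, 33.5 and 51.5 in experiment 1, and 37.1, 24.3 and 14.6 in experiment 2. On both probe sets the 6 h arrays of both experiments were below both 0 h arrays. Within each experiment the 6 h array was also lower relative to each array's own shift in unscaled values. At 9 h the experiments parted: experiment 1 was slightly above its 0 h level and experiment 2 far below it, by 0.19 and -1.72 on the log2 scale for 209790_s_at. The fitted log2 changes of 209790_s_at were -0.96 ± 0.69 at 6 h (95% interval from -2.58 to 0.67, limma adjusted p = 0.969) and -0.76 ± 0.69 at 9 h (0.862). Leaving out experiment 2's array at 9 h gave 0.25 for the second value, and leaving out experiment 1's gave -1.74.

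CASP1, the interleukin-1 converting enzyme of inflammasomes, was read by 5 probe sets. The brightest, 211366_x_at, read 250.1, 200.5 and 143 at 0, 6 and 9 h in experiment 1, and 125, 133 and 90.3 in experiment 2. In each experiment the 9 h array was the lowest of the 3, but the 9 h value of experiment 1 was above the 0 h value of experiment 2, so the groups overlapped. At 9 h all 5 probe sets were below their 0 h value within both experiments, and this held with quantile normalisation and with median scaling. In unscaled values all tested probe sets shifted at 9 h, by a median of -0.84 in experiment 1 and -0.25 in experiment 2. Relative to that shift all 5 were again lower in both experiments. Their fitted log2 changes at 9 h lay between -0.71 and -0.33, that of 211366_x_at being -0.64 ± 0.46 (95% interval from -1.73 to 0.45, limma adjusted p = 0.818, and 0.378 with the replicate block). With 1 array left out that change ranged from -1.13 to -0.14. The 5 probe sets read 1 gene in the same RNA, so they are not separate evidence. Only 206011_at had 9 h arrays that did not overlap with 0 h, at 24.8 and 22.5 against 38.0 and 35.1. At 6 h the 5 changes lay between -0.56 and -0.013, and 206011_at moved by -0.59 in experiment 1 and 0.56 in experiment 2.

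CASP4, which senses bacterial lipopolysaccharide inside the cell, lies near CASP1 on chromosome 11 and had 2 probe sets that disagreed. The brighter, 209310_s_at, read 119.6, 219.8 and 181 at 0, 6 and 9 h in experiment 1, and 108, 139.7 and 114 in experiment 2. Both 6 h arrays were above both 0 h arrays, with a log2 change of 0.62 ± 0.39 (95% interval from -0.30 to 1.55, limma adjusted p = 0.969). This was the highest fitted change of the 21 caspase probe sets at 6 h. The other, 213596_at, read 43.9, 39.7 and 53.1, and 49.5, 36.3 and 36.3, so that its 6 h arrays were below those at 0 h (log2 change -0.29 ± 0.44). At 9 h the changes were 0.34 and -0.085, with the times overlapping on both probe sets.

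**Figure D2:**
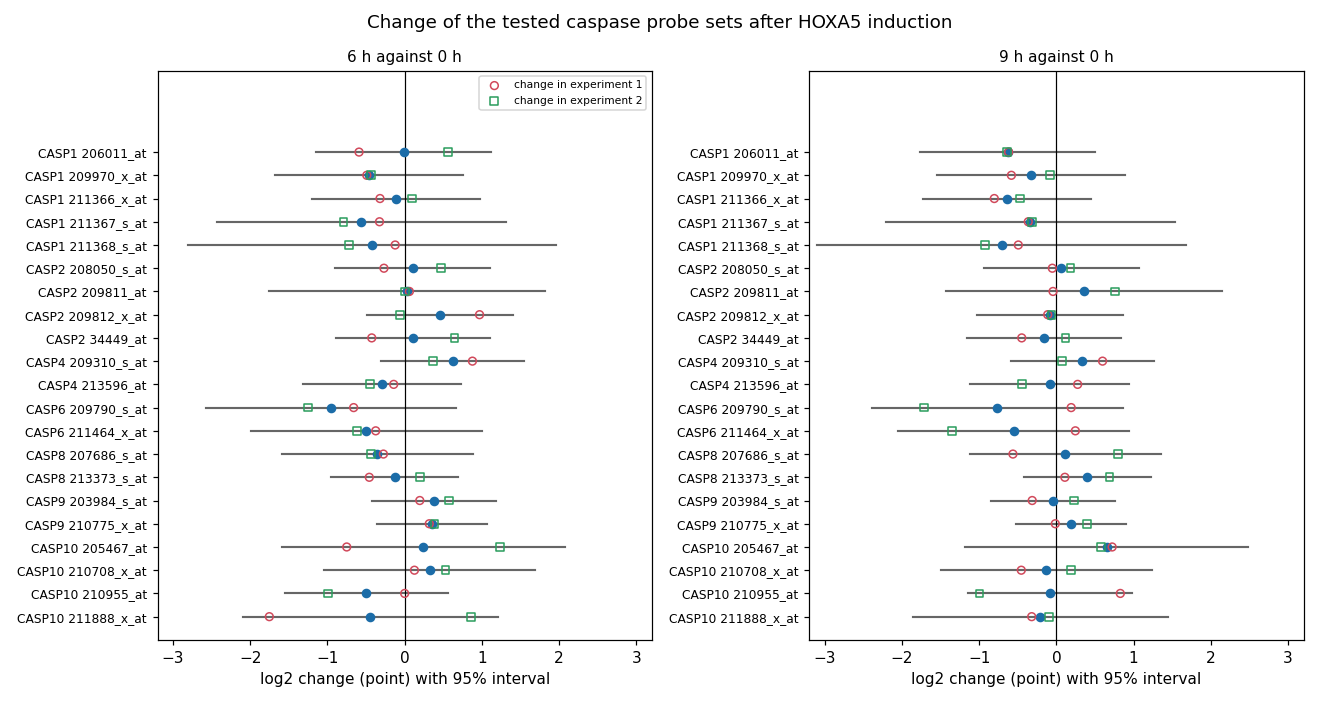
Log2 change of the 21 tested caspase probe sets at 6 h (left) and 9 h (right) against 0 h, as the fitted change (filled point) with its 95% interval (line) and the change within experiment 1 (open circle) and experiment 2 (open square). Every interval includes 0, and the experiments lie far apart for CASP10 at 6 h and CASP6 at 9 h.

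Counting probe sets whose groups did not overlap gave shares close to or below those of the array as a whole. At 6 h, 3 of 21 were higher than at 0 h (CASP4 209310_s_at and both CASP9 probe sets; 16.1% of all tested) and 4 were lower (both CASP6 probe sets, CASP4 213596_at and CASP8 207686_s_at; 16.2% of all). At 9 h, 2 were higher (CASP8 213373_s_at and CASP10 205467_at; 18.3% of all) and 2 lower (CASP1 206011_at and CASP2 209812_x_at; 19.1% of all). For 9 h against 6 h, 1 was higher (CASP8 213373_s_at; 14.9% of all) and 3 lower (CASP1 206011_at, CASP2 34449_at and CASP9 203984_s_at; 15.1% of all). With both induced times set against 0 h, 0 were higher and 0 lower, beside 6.44% and 7.8% of all. The experiments gave the same sign for 11 of the 21 at 6 h, beside 51.2% of all tested probe sets, and for 10 at 9 h, beside 55.8%.

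**Figure D3:**
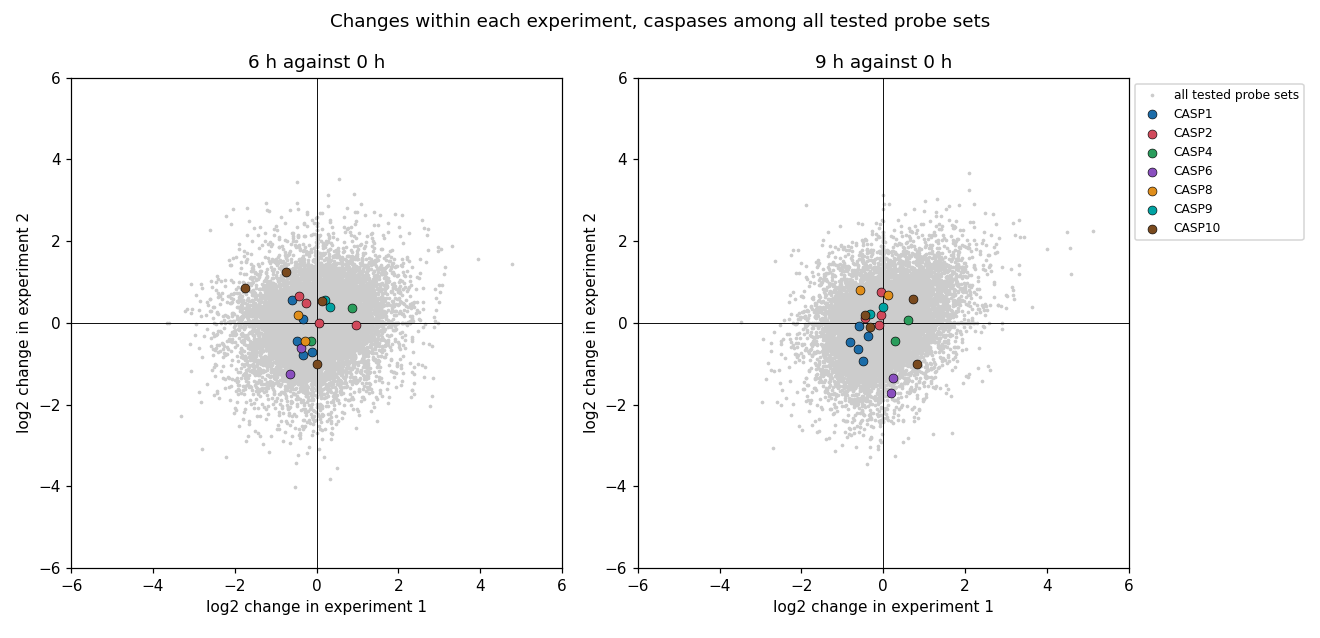
Log2 change in experiment 2 against that in experiment 1, for 6 h against 0 h (left) and 9 h against 0 h (right), with all 18360 tested probe sets in grey and the 21 caspase probe sets coloured by gene. The caspases lie inside the cloud of all probe sets, with CASP6 at 9 h near 0 on the x axis and low on the y axis.

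The experiments were also compared with each other, a comparison added after the values were seen. Arrays were assigned by their titles, but the 6 h array of experiment 2 carries the lot line of experiment 1. The comparison was not repeated with the lot lines. With time as a term, 1 of the 21 caspase probe sets passed for experiment 2 against experiment 1, where 2.48% of all tested probe sets passed. That background, 455 probe sets, was not stable: it became 0 without a filter, 1 without an intensity trend, 6 in unscaled values, and 1620 or 1689 with the 0 h array of experiment 1 or of experiment 2 left out. At an unadjusted p under 0.05 there were 7 of 21, beside 19.6% of all. The one that passed was CASP1 211368_s_at, which read 24.2, 14.7 and the floor at 0, 6 and 9 h in experiment 2, and 78.1, 71.7 and 55.5 in experiment 1. Its log2 difference was -2.03 ± 0.38 (limma adjusted p = 0.0274), lower at all 3 times. The probe sets 209970_x_at, 211366_x_at and 211367_s_at of CASP1 had differences of -0.86, -0.75 and -1.51, also without overlap, and did not pass (adjusted p from 0.0638 to 0.127). The fifth, 206011_at, had a difference of 0.26 ± 0.41. In all, 5 of 21 lay lower in experiment 2 with no overlap (9.31% of all tested) and 1 higher (9.8% of all). Without regard to overlap, 8 were lower at all 3 times (17.9% of all) and 2 higher (20.7% of all). In both counts the CASP1 probe sets among the lower ones read 1 gene in the same RNA, so they are not separate evidence. The fifth of those lower without overlap was CASP2 209811_at, at -1.41 ± 0.37, with 2 experiment 2 arrays at the floor. The higher one was CASP10 210708_x_at, at 0.87 ± 0.37 (adjusted p = 0.231). The call for 211368_s_at was lost in unscaled values (adjusted p = 1), with a floor at the 10th percentile (0.0658), without a filter (0.264) and without an intensity trend (0.0705). The difference itself was -2.07, -2.60, -2.03 and -2.03 in these 4 settings. The 7 luminal epithelial markers summed to 1057, 1067 and 1196 at 0, 6 and 9 h in experiment 2, and to 3722, 2097 and 2229 in experiment 1. The brightest of them was KRT18, with 851, 781 and 929 in experiment 2 and 3510, 1908 and 1950.0 in experiment 1. KRT18 made up most of each sum, and the other luminal markers did not follow it as a set. ESR1 was higher in experiment 2 at all 3 times, at 52.5, 56.1 and 41.1 against 34.2, 17.1 and 38.9. GATA3 and TFF1 were higher in experiment 2 at some times and lower at others. The 6 leukocyte markers with a probe set summed to 96.9, 179 and 153 in experiment 2, and to 147, 197 and 96.8 in experiment 1. Among them CD3E and CD79A were above the floor on all 6 arrays, CD2 on 5, PTPRC on 4, CD14 on 1 and LYZ on 0. Their part in the CASP1 difference was not tested.

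**Figure D4:**
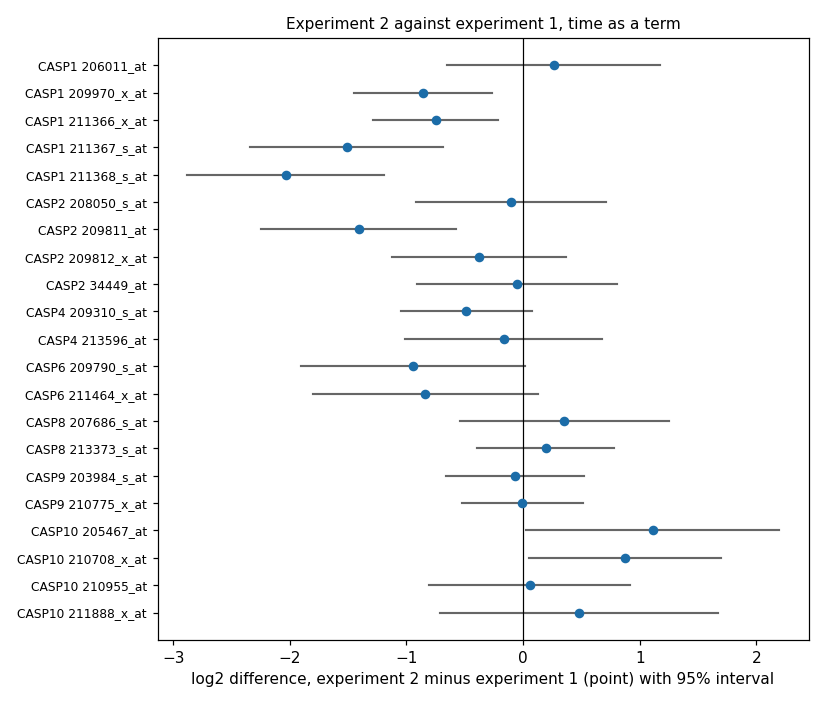
Log2 difference of the 21 tested caspase probe sets between experiment 2 and experiment 1 (experiment 2 minus experiment 1, with time as a term), with 95% intervals. The 4 CASP1 probe sets other than 206011_at, and CASP2 209811_at, have intervals wholly below 0, and 2 of the 4 CASP10 probe sets have intervals wholly above it.

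Genes that switch caspases on, hold them back or are cut by them were read from 4 lists of 43 genes, 33 of which had a tested probe set. The brightest probe set stood for each gene. By limma 0 of the 33 passed at 6 h and 0 at 9 h, with or without the replicate block, and 0 at 6 h and 2 at 9 h (TNFRSF10B and BIRC2) had an unadjusted p under 0.05, beside 4.77% and 7.41% of all tested probe sets, so the count at 9 h was no higher than the background. The median log2 change of the 33 was 0.044 at 6 h and -0.078 at 9 h. Of the 10 platform genes tested, 7 had positive and 3 negative changes at 6 h, and 4 and 6 at 9 h. TNFRSF10B, a death receptor for the ligand TRAIL, had log2 changes of 0.54 ± 0.26 at 6 h and 1.01 ± 0.26 at 9 h. At 0, 6 and 9 h it read 324, 432 and 737 in experiment 1 and 359.8, 574 and 638 in experiment 2, so that both induced groups were above 0 h, and its adjusted p at 9 h was 0.559 (0.0995 with the replicate block). CFLAR, a catalytically dead relative of CASP8 that competes with it and lies next to CASP10 in the genome, had a change of 0.69 ± 0.38 at 9 h. By experiment it was 1.08 and 0.30, and its adjusted p by limma was 0.742 (0.313 with the replicate block). All 11 of its probe sets were positive, but they read 1 gene in the same RNA and are not separate evidence. APAF1 had 0.58 ± 0.41 at 6 h, and 2 of its 3 probe sets were positive.

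Among the 7 inhibitors and their antagonists, 5 had positive and 2 negative changes at 6 h, and 4 and 3 at 9 h. BIRC2, a ubiquitin ligase of the inhibitor of apoptosis family, read 421, 575 and 1236 at 0, 6 and 9 h in experiment 1, and 664, 1137 and 1237 in experiment 2. Its log2 changes were 0.61 ± 0.38 and 1.22 ± 0.38, with an adjusted p of 0.596 at 9 h (0.0802 with the replicate block). HTRA2, a mitochondrial protease that relieves inhibition of caspases, had -0.66 ± 0.50 and -0.94 ± 0.50. Of the 12 substrates tested, 5 had positive and 7 negative changes at 6 h, and 4 and 8 at 9 h, with medians of -0.021 and -0.35. DFFA, the inhibitor of the nuclease that cuts DNA in apoptosis, had 0.73 ± 0.44 at 6 h. The lamin LMNB1 had -0.69 ± 0.77 at 6 h and -0.80 ± 0.77 at 9 h, and the pore protein GSDMD -0.93 ± 0.84 at 9 h. Of the inflammasome genes 4 could be tested, 2 positive and 2 negative at 6 h and 3 and 1 at 9 h. NLRP1, an inflammasome sensor, had -0.40 ± 0.93 at 6 h, by -1.77 and 0.97 in the experiments, and 0.68 ± 0.93 at 9 h. AIM2, a sensor of cytosolic DNA, had -0.38 ± 0.48 at 6 h, and CARD8 0.62 ± 0.42 at 9 h. The adaptor PYCARD, which links sensors to CASP1, and NLRP3 were below the floor on all arrays.

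**Figure D5:**
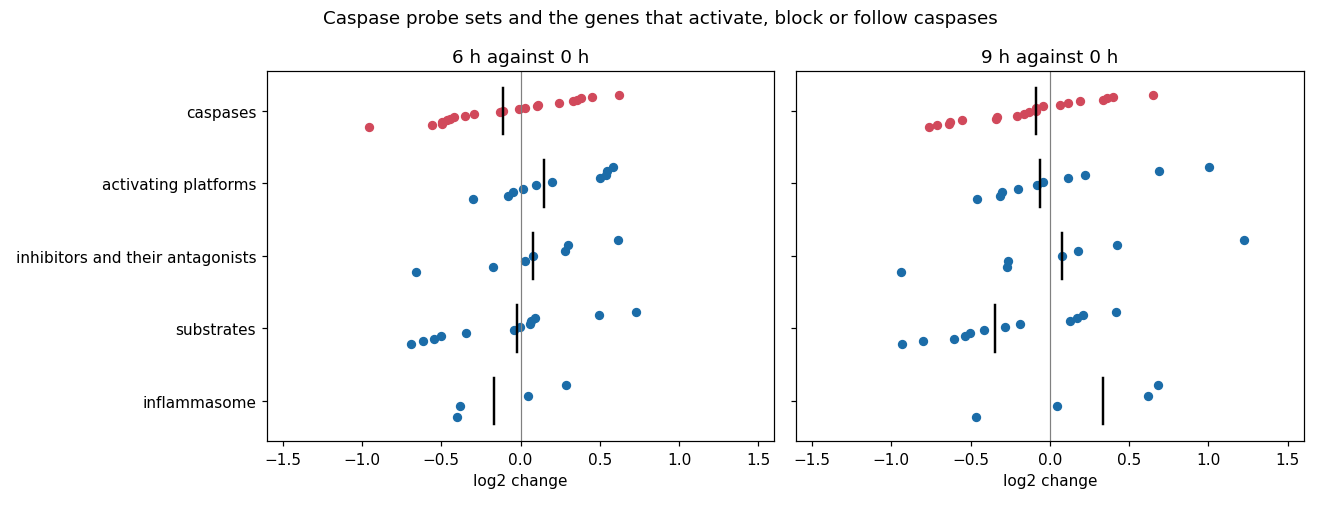
Log2 change at 6 h (left) and 9 h (right) against 0 h for the 21 tested caspase probe sets (red) and the 33 tested genes of the 4 partner lists (blue, 1 point per gene), with the median of each row as a vertical bar. Medians lie between -0.17 and 0.15 at 6 h and between -0.35 and 0.34 at 9 h, and the highest points at 9 h are BIRC2 and TNFRSF10B.

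Patterns over the arrays were compared by Pearson's correlation of log2 values, as a description over 6 arrays that all genes share. For CASP2 208050_s_at the genes most alike, among 5944 candidates above the floor throughout, were SPIB (r = 0.97), CPT2 (0.96) and SYBU (0.95). This CASP2 probe set varied little, with an SD of 0.19 over the arrays, under the 0.3 asked of the candidates. Its 6 h changes were opposed between the experiments (-0.27 and 0.47). For CASP8 213373_s_at the genes most alike were PHF8 (0.98), ZEB2 (0.98) and CIRSR (0.97). CASP6, whose representative varied most of the 7, was most like ROBO3 (0.996), POLR2B (0.99) and SERPINI1 (0.99). The number of genes with r over 0.9 was 7 for CASP2, 43 for CASP8 and 155 for CASP6, so with so few arrays many unrelated genes can share a pattern.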

How the data were processed

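The authors deposited 1 linear intensity per probe set and array, and per the labels the RNA was hybridised to Affymetrix chips. For the software and any scaling behind these values, the sources used here give nothing, and the trimmed means of the arrays (2% off each end) differed up to 5.49-fold. Intensities were quantile normalised, raised to a floor at the 25th percentile (12.7) and log2 transformed. The 68 control probe sets were left out, and the 18360 probe sets with at least 2 of 6 arrays above the floor were tested.

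Changes were fitted over the 3 groups with limma 3.58.1 (R 4.3.3; lmFit, contrasts, eBayes with an intensity trend, 3 residual degrees of freedom). P-values were corrected with the Benjamini-Hochberg procedure across all tested probe sets, at a two-sided threshold of 0.05. The fit was also run on simulated data with independent noise, where the check asked only that mean estimates recover the planted changes. It set no requirement on the calls. Depth has no meaning for arrays: their number, 2 per group, limits the precision. The labels speak of 2 batches of RNA and no further cultures, so p-values measure the spread between these arrays. The experiment number marks these batches and pairs the arrays (deviations of same-numbered arrays correlated at 0.247, 0.336 and 0.391), and the fit without it was the main one. The 6 h array of experiment 2 carries the lot line of experiment 1, which was run as another block. Symbols came from the platform annotation through Entrez numbers, for 19059 of 19071 probe sets with 1 symbol.

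All caspase probe sets are named. Partner genes are named where they passed, and otherwise the 2 largest changes per list and time. For likeness, CASP2, CASP8 and the most variable caspase were set against genes with an SD of at least 0.3. The alternatives were median scaling, no scaling, a floor at the 10th percentile, an offset of 16 with no floor, no filter or a stricter one, no trend, the blocks, other probe set rules and leaving out each array. The members and lists were chosen with earlier results of these data known.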

Additional observations from a re-analysis of the deposited data

How the results depend on the processing

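Under the 15 alternatives run for each time comparison, 0 caspase probe sets passed, with scaling, floor, filter, trend and block changed in turn and each array left out. The 7 genes gave 224 values at 6 h and 9 h under alternatives, of which 202 kept direction and 22 reversed. With every array kept, 0 passed. Many of the 202 could not have reversed, so their number overstates the agreement. With the lower floor, no filter, all arrays required above the floor, no trend or the replicate block, each gene's estimate equalled the main one. The lot line as a block also left the 9 h estimates unchanged. In unscaled values CASP2 turned to -1.24 at 6 h and -0.50 at 9 h, CASP4 to -0.87 and -0.17, CASP9 to -1.16 and -0.34, CASP8 to -0.13 at 9 h and CASP10 to -1.03 at 6 h, since all probe sets shifted by -1.34 and -0.56. Relative to that shift they kept the direction of the normalised values. CASP2 turned to -0.053 at 6 h with the lot line as a block, and CASP10 to -0.093 at 6 h and 0.057 at 9 h with the mean of its probe sets. With 1 array left out, the 6 h values ranged from -0.61 to 0.39 for CASP1, from -0.11 to 0.33 for CASP2, from -0.35 to 0.089 for CASP8 and from -0.14 to 0.80 for CASP10, and the 9 h values from -0.15 to 0.29 for CASP2, from -1.74 to 0.25 for CASP6 and from -0.72 to 0.44 for CASP10. Without a change of sign, the 9 h values ranged from -1.13 to -0.14 for CASP1, from 0.0040 to 0.67 for CASP4, from 0.22 to 0.57 for CASP8 and from 0.070 to 0.31 for CASP9, and the 6 h values from 0.30 to 0.96 for CASP4, from -1.32 to -0.61 for CASP6 and from 0.27 to 0.43 for CASP9. Over all probe sets, where 0 passed, the replicate block gave 66 at 9 h and 30 for both induced times, unscaled values 9 for both induced times, and no filter 24 at 6 h, 12 at 9 h, 18 for 9 h against 6 h and 17 for both induced times; the cause was not tested. With the block, the caspases again gave 0. The 1 caspase probe set called between the experiments became 0 in unscaled values, with the lower floor, with no filter, with all arrays required above the floor, which leaves that probe set out, and with no trend. It became 2 with the offset of 16, and 1 to 2 with an array left out (2 without the 9 h array of experiment 1).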
